A study of Sus scrofa with 12 samples.

Results

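Notch receptors, ligands and target genes were followed in whole ovaries of young female pigs that had not farrowed, called gilts (Sus scrofa). A list of 10 genes was taken (NOTCH1, NOTCH2, NOTCH3, JAG1, JAG2, DLL4, HES1, HEY1, HEY2 and HEYL), and a gene was found where a locus of the expression table carried exactly its symbol. Of the 10 genes, 8 were found among 29150 loci. NOTCH1 and JAG2 were not analysed here. Where a symbol stood on several loci, as for NOTCH2 and HEY2, the locus with the highest mean read count was used.

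The 12 libraries come from the left ovaries of a purebred French Yorkshire line, 1 ovary per gilt. In the ES group, 6 gilts had cycled regularly and were slaughtered at the third estrus. For the NES group, 6 full sisters of these gilts were taken that had not come into estrus. Detection of estrus began at 165 days of age in both groups, and neither the age at slaughter nor the stage of the NES ovaries is given in the sources used here. No transgene or drug treatment is named. Total RNA was depleted of ribosomal RNA, and each library held 58140547 to 68961955 counted reads. Because whole ovaries were used, more cells of a type and more RNA per cell cannot be told apart. Markers that define ovarian tissue were present in every library, with 1224 to 12863 reads for the granulosa transcription factor FOXL2 and 828 to 1413 reads for the oocyte factor GDF9.

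Notch signalling passes between touching cells. A ligand of the Jagged or Delta-like type on one cell binds a Notch receptor on its neighbour, proteases then cut the receptor, and the freed intracellular part joins RBPJ and Mastermind proteins in the nucleus to switch on genes of the HES and HEY families. These targets are themselves transcriptional repressors. In the mammalian ovary the pathway is known from growing follicles, where oocytes carry JAG1 and granulosa cells NOTCH2, and from blood vessels, where DLL4 marks sprouting and arterial endothelium and NOTCH3 marks pericytes and smooth muscle.

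HEYL and HEY2 were the targets with lower mean levels in ES ovaries, HEYL at 0.540 times and HEY2 at 0.611 times the NES level, and 5 of 6 ES libraries lay below every NES library for each. How many of all loci show this 5 of 6 pattern was not counted. For 0.906% of all tested loci each of the 6 ES libraries lay below every NES library. DLL4 had a higher mean in ES (1.55 times), while NOTCH2, NOTCH3, JAG1, HES1 and HEY1 had intervals of the difference that included 0. Of the 7 genes expressed highly enough to be tested, 0 passed at an adjusted p of 0.05 with edgeR's quasi-likelihood test over all 20421 tested loci, against 0.945% of all loci (0.152% called higher and 0.793% called lower in ES). At an unadjusted p under 0.05 there were 3 of 7 (DLL4, HEY2 and HEYL), against 16.3% of all loci. The median log2 difference of the 7 genes was 0.18, and that of all tested loci was 0.043. Of all tested loci, 56.2% had a positive log2 difference.

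**Figure D1:**
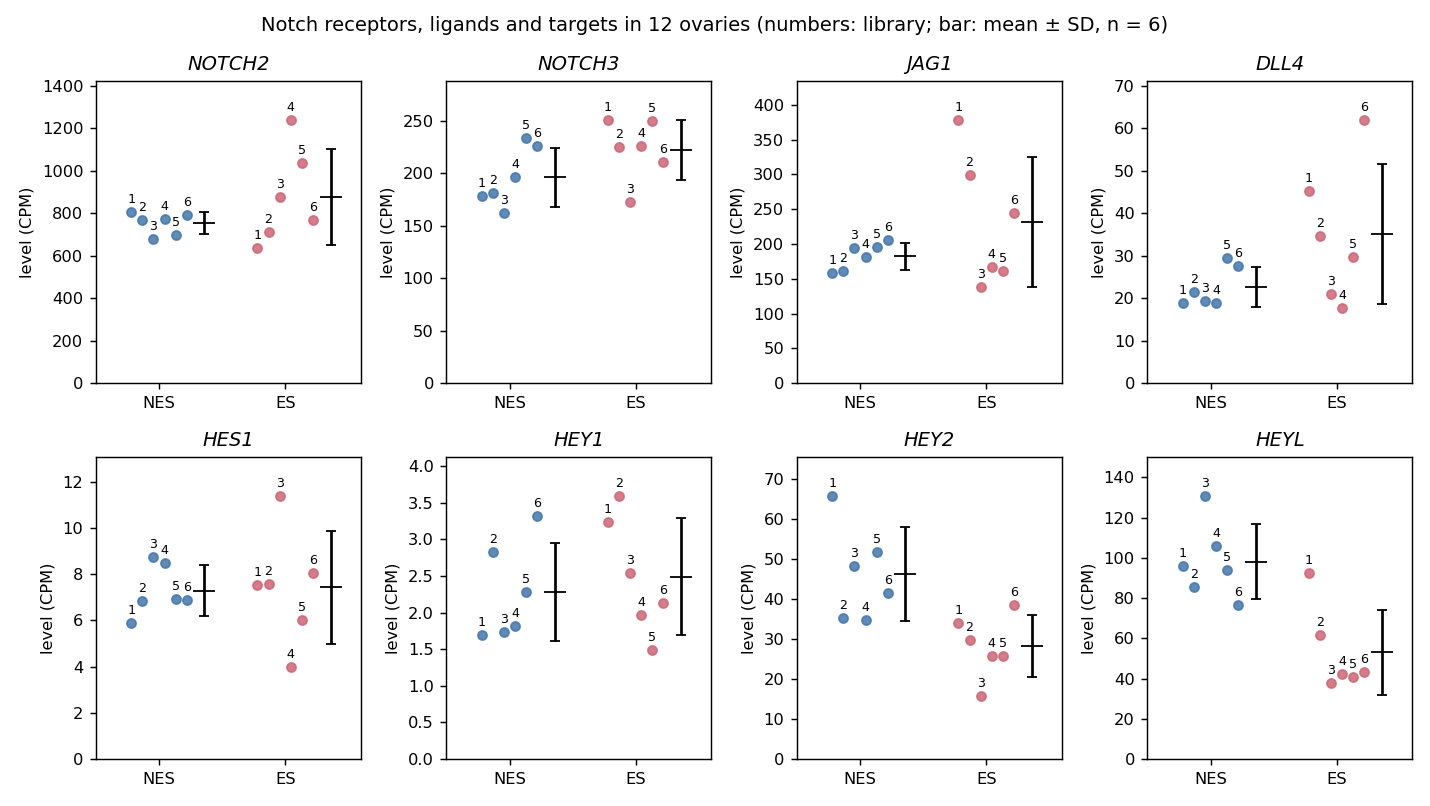
Level of each gene as counts scaled to library size (CPM, linear axis from 0) in 6 NES and 6 ES libraries. Each point is 1 library with its number and the bars give mean ± SD. For HEY2 and HEYL the ES points lie low, with ES6 (38.5 CPM) and ES1 (92.4 CPM) reaching into the NES range. For NOTCH2, JAG1 and DLL4 the ES points spread more widely than the NES points.

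Levels can be compared between genes only per length, for which the deposited FPKM values serve (fragments scaled to a length and to the depth of the library). The length used for each gene is not stated and was not the whole span of every locus. The order between genes and the FPKM shares below rest on the deposited values. NOTCH2 was the most abundant of the 8 genes in 12 of 12 libraries, with a mean of 29.1 FPKM, and NOTCH3 came next in every library with 14.1 FPKM. JAG1 followed at 6.93 FPKM, and HEY2 exceeded it in 1 of 6 NES libraries. HEYL, HEY2 and DLL4 had overall means of 3.80, 3.19 and 2.99 FPKM, and their ranges over all 12 libraries overlapped. HES1 averaged 1.56 FPKM, and HEY1 was lowest in every library at 0.391 FPKM. The order among the middle genes differed between the groups. DLL4 stood above HEYL in 5 of 6 ES libraries and 0 of 6 NES libraries, and above HEY2 in the same numbers of libraries. The mean HEYL level was 2.53 ± 0.861 FPKM over the ES libraries against 5.06 ± 0.923 FPKM over the NES libraries, and the mean DLL4 level 3.54 ± 1.66 against 2.44 ± 0.486 FPKM (SD, 6 libraries each).

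**Figure D2:**
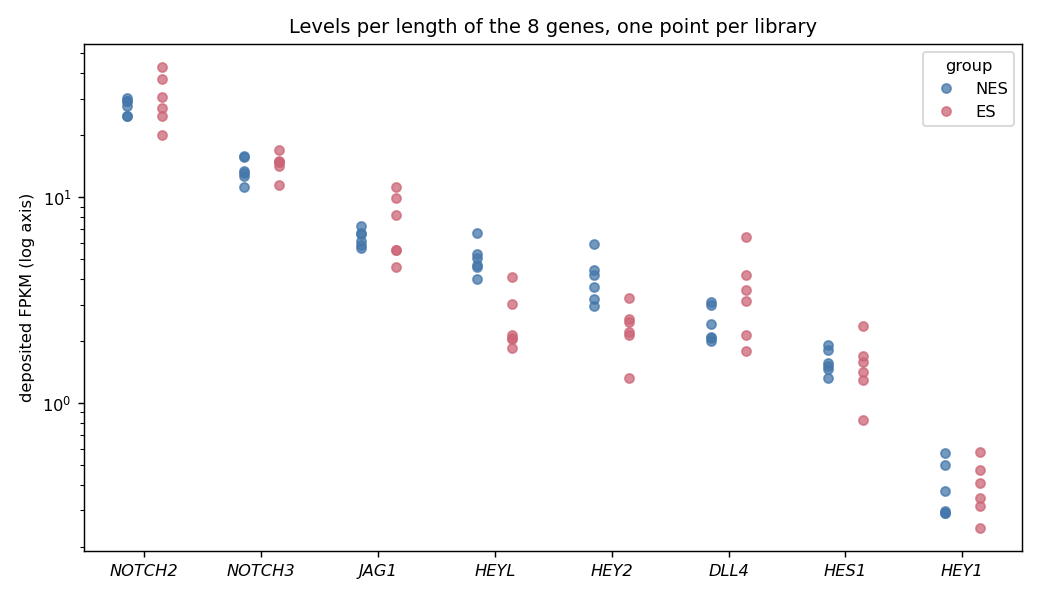
Deposited FPKM on a log axis for the 8 genes, ordered by their mean over all 12 libraries, with 1 point per library. NOTCH2 and NOTCH3 lead in every library, HEY1 is lowest, and HEYL, HEY2 and DLL4 share 1 range around 3 FPKM.

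Among the receptors, NOTCH2 is the receptor known from granulosa cells. It lay at MSTRG.16083 on the plus strand of chromosome 4, 100951359 to 101154588 (pig build Sscrofa11.1). Levels of 1 gene between libraries are given as CPM, counts scaled to library size. In ES the lowest NOTCH2 level was 638 CPM (ES1), the median 822 CPM and the highest 1238 CPM (ES4). In NES the lowest was 679 CPM (NES3), the median 772 CPM and the highest 805 CPM (NES1). The 6 NES libraries stood close together and the ES libraries lay on both sides of them. ES3, ES4 and ES5 were above every NES library and ES1 was below. The means were 878 ± 225 CPM in ES and 753 ± 51.7 CPM in NES, a log2 difference of 0.22 with a 95% interval of -0.11 to 0.55 (adjusted p = 0.501). Without ES4 the log2 difference was 0.099. As a share of the group mean, the SD was 25.6% in ES and 6.86% in NES.

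A further pair of loci carries the NOTCH2 name. MSTRG.16082, on the same strand from 100948931 to 101040310, had means of 22.1 ± 4.59 (ES) and 22.1 ± 2.74 CPM (NES). MSTRG.16084, on the minus strand, averaged 5.53 ± 1.48 and 4.62 ± 1.16 CPM. Both were low beside the long NOTCH2 locus, and since the strand setting of the counting is not given, reads may have been shared among them.

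NOTCH3, the receptor of pericytes and vascular smooth muscle, lay at MSTRG.12159 on chromosome 2, 62364508 to 62405996. It ranged from 173 CPM (ES3) over a median of 225 to 250.1 CPM (ES1) in ES. In NES it ranged from 162 CPM (NES3) over a median of 189 to 233 CPM (NES5). The groups overlapped over most of their range. The log2 difference was 0.18 (95% interval -0.081 to 0.44, adjusted p = 0.494). Beside it, the 10 measured markers of mural cells (pericytes and smooth muscle) had a median log2 difference of 0.54, with 8 positive and 0 called. Of all tested loci 56.2% were positive. Their summed level was 172 to 378 FPKM in ES and 121 to 264 FPKM in NES, no marker of this list was at 0 in all libraries, and its part in the NOTCH3 value was not tested.

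The endothelial receptor NOTCH4, which is not among the 10 genes, had a log2 difference of 0.36 (adjusted p = 0.547), 0.20 without ES2 and 0.63 without NES6. It reached 85.5 CPM in ES1 and 92.0 CPM in ES2, but also 85.3 CPM in NES6, and 34.9 to 48.2 CPM in the remaining libraries. Of the summed FPKM of NOTCH2, NOTCH3 and NOTCH4, NOTCH3 made up 23.5 to 34.1% in ES and 26.9 to 34.6% in NES. The balance among the receptors thus overlapped between the groups.

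JAG1, the Jagged ligand that oocytes and endothelium are known to carry, lay at MSTRG.10186 on chromosome 17, 19588020 to 19630654. Its ES levels ran from 139 CPM (ES3) over a median of 206 to 378 CPM (ES1), and its NES levels from 158 CPM (NES1) over a median of 187 to 205 CPM (NES6). ES1, ES2 and ES6 were above every NES library, ES3 was below, and ES4 and ES5 lay within the NES range. The means were 232 ± 93.5 and 182 ± 19.5 CPM. The log2 difference was 0.34 (95% interval -0.14 to 0.83, adjusted p = 0.478), and without ES1 it was 0.14.

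DLL4, the Delta-like ligand of endothelium, lay at MSTRG.1078 on chromosome 1, 130374120 to 130386402. In ES it ranged from 17.6 CPM (ES4) over a median of 32.2 to 61.8 CPM (ES6). In NES it ranged from 18.9 CPM (NES1) over a median of 20.4 to 29.4 CPM (NES5). ES1, ES2, ES5 and ES6 were above every NES library, ES5 by a narrow margin at 29.8 CPM, and ES4 was below all of them. The means were 34.99 ± 16.4 and 22.6 ± 4.69 CPM, and the log2 difference was 0.63 ± 0.28 (SE; unadjusted p = 0.0396, adjusted p = 0.279). Without ES6 it was 0.39.

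The 10 measured endothelial markers all had positive log2 differences with edgeR and TMM factors, with a median of 0.27 and 0 called. Positive values were seen in 9 of 10 with edgeR on library totals, and in 8 of 10 in limma on FPKM. With edgeR 56.2% of all tested loci were positive. With 1 library left out, 9 or 10 of the 10 markers were positive, again with 0 called. The median then ranged from 0.19 (without NES3) to 0.42 (without NES6). Their summed level was 51.2 to 81.9 FPKM in ES and 40.1 to 85.6 FPKM in NES, so the groups overlapped, and ES6, the library with the most DLL4, had 60.0 FPKM. No listed endothelial marker was at 0 in all libraries, and their part in the DLL4 value was not tested.

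The ES libraries that were high for JAG1 were not those high for NOTCH2. JAG1 exceeded all NES libraries in ES1, ES2 and ES6, and NOTCH2 did so in ES3, ES4 and ES5. This comparison was chosen after the values were seen, and how many gene pairs divide the libraries so was not counted. DLL4 did not divide the libraries in this way, since ES5 exceeded all NES libraries for both DLL4 and NOTCH2. ES1, ES2 and ES6 also had the largest summed levels of the 7 theca markers, at 609, 269 and 372 FPKM, against 38.3 to 171 FPKM in ES3, ES4 and ES5. The theca list is named here after its sums were seen. The luteal markers did not divide the ES libraries so, with 54.4 FPKM in ES1, 33.7 in ES3, 24.0 in ES6 and 21.0 in ES2. Their sum was 8.79 to 17.7 FPKM in NES. ES3 was apart in macrophage markers, with a sum of 422 FPKM against 11.3 to 26.6 FPKM elsewhere, and ES6 in epithelial markers, with 63.3 FPKM against 0.770 to 4.33 FPKM elsewhere. How far these cell types enter the receptor and ligand values was not tested.

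Among the targets, HEYL is a repressor known from vascular smooth muscle. It lay at MSTRG.19541 on the minus strand of chromosome 6, 95442330 to 95459937, and was covered by 2389 to 7769 reads per library. In ES the lowest level was 37.7 CPM (ES3), the median 42.7 CPM and the highest 92.4 CPM (ES1). In NES the lowest was 76.8 CPM (NES6), the median 95.04 CPM and the highest 131 CPM (NES3). ES3, ES4, ES5 and ES6 lay together between 37.7 and 43.0 CPM, ES2 stood at 61.5 CPM, and ES1 alone reached into the NES range. The means were 53.0 ± 21.1 and 98.1 ± 18.8 CPM. The log2 difference was -0.89 ± 0.22 (SE; 95% interval -1.37 to -0.41), with an unadjusted p of 0.00155 and an adjusted p of 0.0756.

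The HEYL difference kept its direction in 22 of 22 alternative fits, with log2 values from -1.13 to -0.72. It was called in 6 of them, with adjusted p from 0.00762 to 0.202 over all 22. DESeq2, limma with each of 3 pseudocounts, edgeR without TMM factors and edgeR without ES1 (log2 -1.13, adjusted p = 0.0221) made the call. Of all 20421 loci these fits called 1065, 319 to 337, 364 and 278, in that order. Edge R with TMM factors and all libraries called 193.

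HEY2, a repressor known from arterial endothelium and the heart, lay at MSTRG.346 on the minus strand of chromosome 1, 37217756 to 37231385. Its ES levels ran from 15.8 CPM (ES3) over a median of 27.8 to 38.5 CPM (ES6), and its NES levels from 34.8 CPM (NES4) over a median of 44.9 to 65.7 CPM (NES1). Only ES6 reached the NES range, where it stood above NES2 and NES4. The means were 28.3 ± 7.82 and 46.2 ± 11.7 CPM, with a log2 difference of -0.71 ± 0.21 (SE; 95% interval -1.17 to -0.25, unadjusted p = 0.00547, adjusted p = 0.133). Its direction held in 22 of 22 alternative fits, and DESeq2 alone called it (adjusted p = 0.0390). DESeq2 called 1065 of all 20421 loci. The plus-strand locus MSTRG.345, which also carries the HEY2 name, had 0 to 8 reads per library, beside 1004 to 4588 reads at MSTRG.346.

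**Figure D3:**
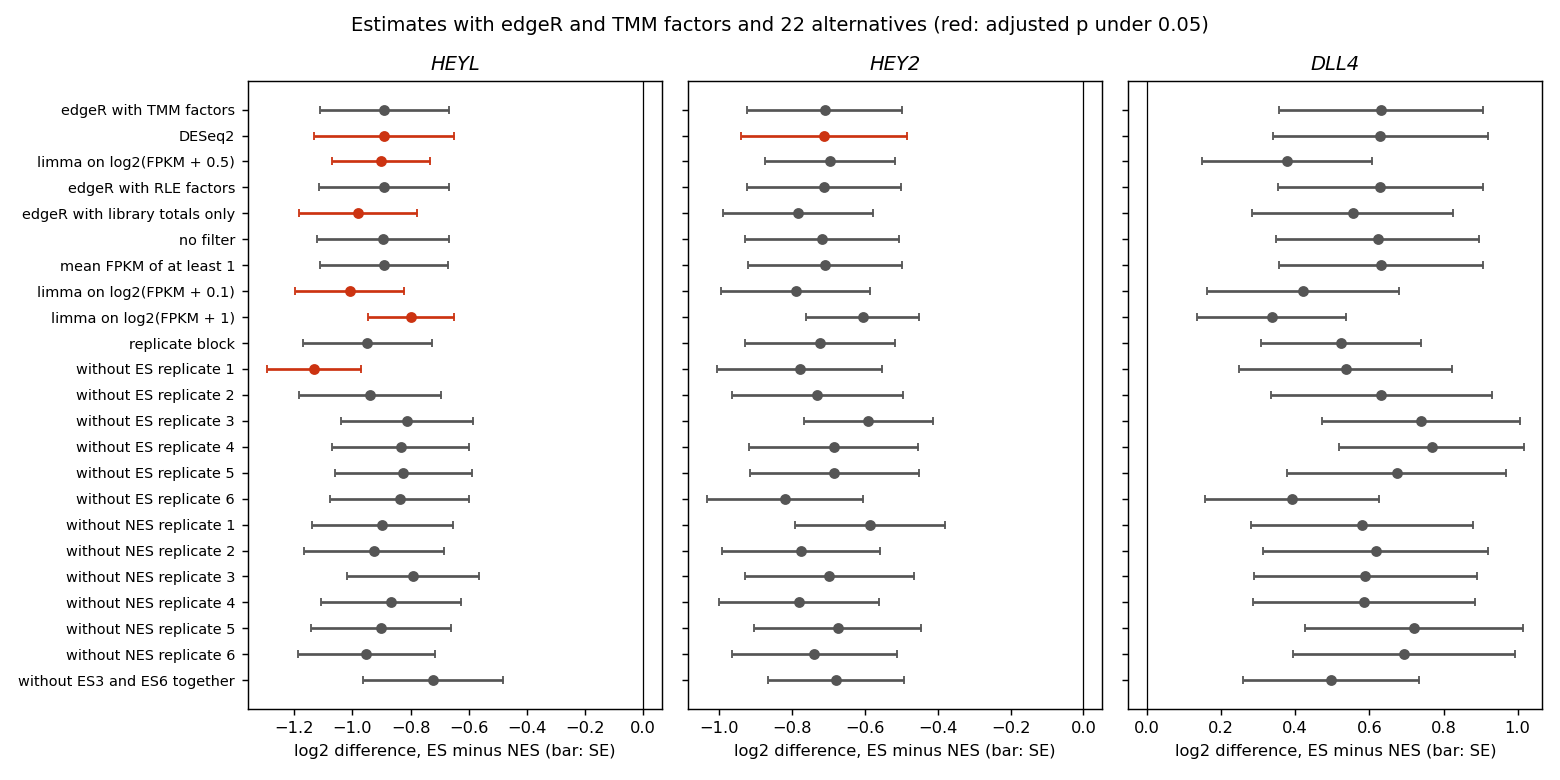
Log2 difference (ES minus NES) of HEYL, HEY2 and DLL4 with edgeR and TMM factors and in 22 alternative fits. Points are estimates, bars are SE, and red marks an adjusted p under 0.05. Every HEYL and HEY2 estimate is below 0 and every DLL4 estimate above 0. Red points number 6 for HEYL, 1 for HEY2 and 0 for DLL4.

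Marker lists of cell division and of follicle cells are given beside HEYL and HEY2. The 5 measured proliferation markers were all called lower in ES, with a median log2 difference of -2.03 and a summed level of 3.12 to 7.61 FPKM in ES against 8.07 to 40.0 FPKM in NES. Of all tested loci, 0.793% were called lower in ES. The 5 calls fell to 0 with the replicate block and without ES3 and ES6 together. They also fell to 0 without any 1 of ES2, ES4, ES6, NES1, NES2, NES3, NES4 or NES5. Those fits called 0 or 1 of all 20421 loci. In each of them all 5 markers had an unadjusted p under 0.05, and the median stayed between -2.15 and -1.75. Granulosa and theca markers lay on both sides. Of the 9 measured granulosa markers, 1 was called, IHH, lower in ES (-3.01), and the median was -0.73. FST (-2.03) and INHBB (-1.82) were among those lower without a call. Positive values were seen in 4, INHA (1.51) and CYP19A1 (1.43) among them. Of the 7 theca markers, 3 were called lower, namely GLI1 (-1.94), PTCH1 (-1.86) and HHIP (-2.37), around a median of -1.01. Another 3 had positive values without a call, namely STAR (2.88), CYP11A1 (2.79) and CYP17A1 (2.00). All of these markers were named after their values were seen. Without ES1, INHA stood at 0.95 and CYP11A1 at 1.48, and without ES6 CYP19A1 stood at 0.50. STAR was called without ES3 (adjusted p = 0.0455), and DESeq2, with 1065 of all 20421 loci called, called STAR and CYP11A1. DESeq2 also called 3 granulosa and 3 theca markers lower in ES. Limma on FPKM and edgeR on library totals each called 2 granulosa and 3 theca markers lower. The granulosa and theca calls also fell to 0 in each fit in which the proliferation calls did. The summed theca level was 38.3 to 609 FPKM in ES and 117 to 191 FPKM in NES, and the summed granulosa level 46.1 to 1313 and 174 to 697 FPKM. Mural and endothelial markers, by contrast, had positive medians (0.54 and 0.27) beside the lower HEYL and HEY2 values. The part of these cell types in the HEYL and HEY2 values was not tested.

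HES1, a classical Notch target, lay at MSTRG.6192 on chromosome 13, 131135530 to 131140304. It ranged from 3.99 CPM (ES4) over a median of 7.56 to 11.4 CPM (ES3) in ES and from 5.89 CPM (NES1) over a median of 6.89 to 8.75 CPM (NES3) in NES. The NES range lay inside the ES range. The log2 difference was 0.026 (95% interval -0.43 to 0.49, adjusted p = 0.967), and its sign turned in 8 of 22 alternative fits, among them the fit without ES3 (-0.14). HEY1, a target in endothelium and many other tissues, lay at ENSSSCG00000006159 on chromosome 4, 56859606 to 56866039. With 91 to 213 reads per library and a mean of 0.391 FPKM it fell under the minimum of 0.5 FPKM for the test. In ES it ranged from 1.49 CPM (ES5) over a median of 2.33 to 3.59 CPM (ES2), and in NES from 1.69 CPM (NES1) over a median of 2.05 to 3.32 CPM (NES6). The groups overlapped, and in a fit without a minimum the log2 difference was 0.12 (95% interval -0.45 to 0.69). It turned to -0.010 without ES2.

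The make-up of the target set differed from library to library. HES1 made up 15.5 to 39.9% (median 21.5%) of the summed FPKM of the 4 targets in ES and 10.5 to 17.4% (median 15.1%) in NES. HEYL made up 28.8 to 48.0% (median 37.1%) and 40.4 to 51.2% (median 44.7%). The HES1 share was largest in ES3, where HES1 had its highest level and HEYL and HEY2 their lowest, and the shares of the groups overlapped.

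**Figure D4:**
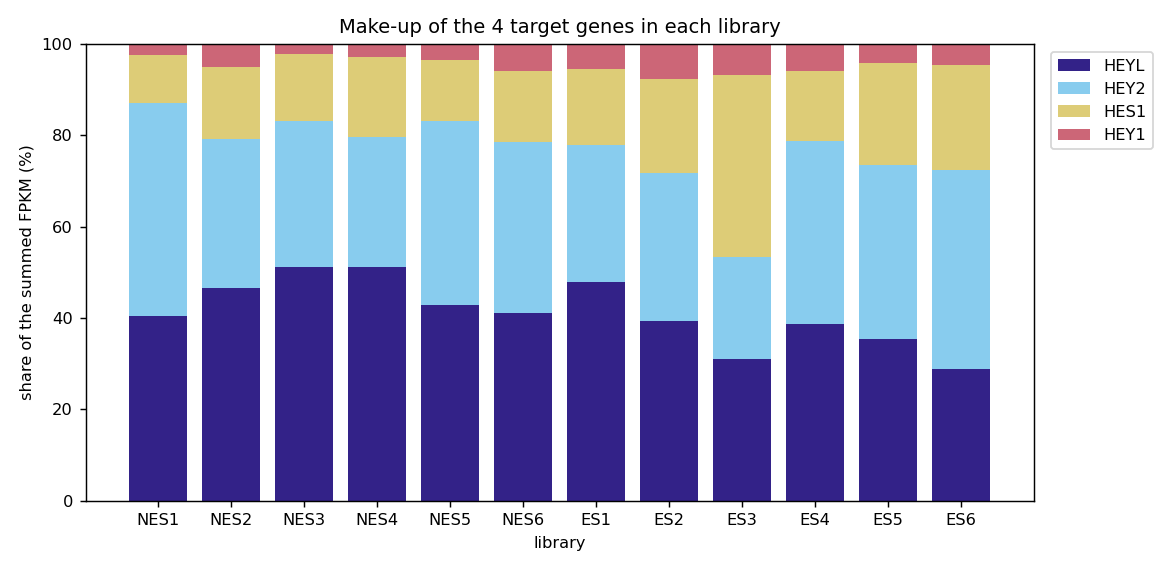
Share of each target in the summed FPKM of HEYL, HEY2, HES1 and HEY1, as stacked bars in percent for each of 12 libraries. HEYL and HEY2 together make up most of the sum, and ES3 has the largest HES1 share at 39.9%.

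The other genes of the pathway, 56 in 9 roles, gave 48 with a locus of their own symbol and 43 that were tested. Of these, 31 (72.1%) had positive and 12 negative log2 differences, beside 56.2% positive among all tested loci. Their median was 0.11, and 0 were called with edgeR. At an unadjusted p under 0.05 there were 7, or 16.3% of the 43, beside 16.3% of all loci. Without ES3 the median was 0.067, with 26 of 43 positive. In limma on FPKM with a pseudocount of 0.5 it was -0.0053, with 20 of 43 positive. The median of all tested loci was 0.043 with edgeR, 0.021 without ES3 and -0.051 in that limma fit.

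Among the other ligands DLL1, a Delta-like ligand, was tested alone. Its ES levels were 4.43 to 9.87 CPM and its NES levels 2.24 to 5.38 CPM, and 4 of 6 ES libraries were above every NES library. That pattern was not counted over all loci. The log2 difference was 0.75 ± 0.23 (SE; adjusted p = 0.147). DLL1 was called with DESeq2 alone (adjusted p = 0.0434), which called 1065 of all 20421 loci. Over 21 alternative fits its log2 difference ranged from 0.27 (limma with a pseudocount of 1) to 0.86 (without NES6). Per length, DLL1 made up 5.14 to 16.2% of the summed JAG1, DLL4 and DLL1 level in ES and 3.38 to 7.79% in NES, with the largest share in ES3.

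POFUT1, the enzyme that puts the first fucose on Notch EGF repeats, was lower in each of the 6 ES libraries than in any NES library, a separation shown by 0.906% of all loci. It stood at 40.3 to 54.1 CPM in ES and 57.0 to 74.5 CPM in NES. The log2 difference was -0.40 ± 0.11 (SE, adjusted p = 0.102), and 5 of 22 alternative fits called it. These were DESeq2, limma with each of 3 pseudocounts and edgeR on library totals only. Such fits called 319 to 1065 of all 20421 loci. RFNG, a Fringe enzyme that extends this fucose, had a log2 difference of 0.26 (adjusted p = 0.502), and 0.14 without ES3.

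Of the 8 tested proteases that cut Notch receptors, 7 had positive log2 differences, beside 56.2% of all tested loci, and 0 were called. FURIN, which cleaves the receptor before it reaches the surface, averaged 79.4 ± 43.4 and 46.6 ± 5.61 CPM (log2 0.77, adjusted p = 0.216), with 156 CPM in ES3 and 0.45 as the log2 difference without it. ADAM17, a surface protease, and PSEN2, a subunit of gamma-secretase, were named after their values were seen because they too had an unadjusted p under 0.05. Their log2 differences were 0.58 and 0.60, and 0.26 for ADAM17 without ES1 and 0.36 for PSEN2 without ES3.

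In the nucleus, MAML3, a Mastermind coactivator, had means of 34.0 ± 8.05 (ES) and 49.6 ± 7.41 CPM (NES). Its log2 difference was -0.55 ± 0.16 (SE, adjusted p = 0.135 with edgeR). DESeq2, with 1065 of all 20421 loci called, called MAML3 (adjusted p = 0.0432). The acetyltransferase EP300 differed by 0.077, a value whose sign turned in several fits. TLE2, a Groucho-type corepressor, had a log2 difference of -0.63 (adjusted p = 0.308), with 9.90 CPM in ES3 and 14.7 CPM in ES4 against 29.5 to 47.0 CPM in NES. CTBP1, another corepressor, had 0.11, and 0.034 without ES3.

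Of the genes that act on ligand uptake and receptor turnover, 0 were called. The ubiquitin ligases MIB1 and MIB2, which drive ligand endocytosis, had log2 differences of 0.079 and 0.084 with edgeR, and both were below 0 in limma on FPKM. The median of all tested loci was also below 0 in limma. NUMB, an inhibitor of Notch at the membrane, had 0.13 (adjusted p = 0.381). DTX1, a Deltex ubiquitin ligase, had 0.75, with 257 CPM in ES4 against at most 88.9 CPM in any other library, and 0.13 without ES4. The HES family genes HES6 and HES4 had 0.39 and 0.28 (0.19 for HES6 without ES3 and 0.073 for HES4 without ES1), and neither was called.

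**Figure D5:**
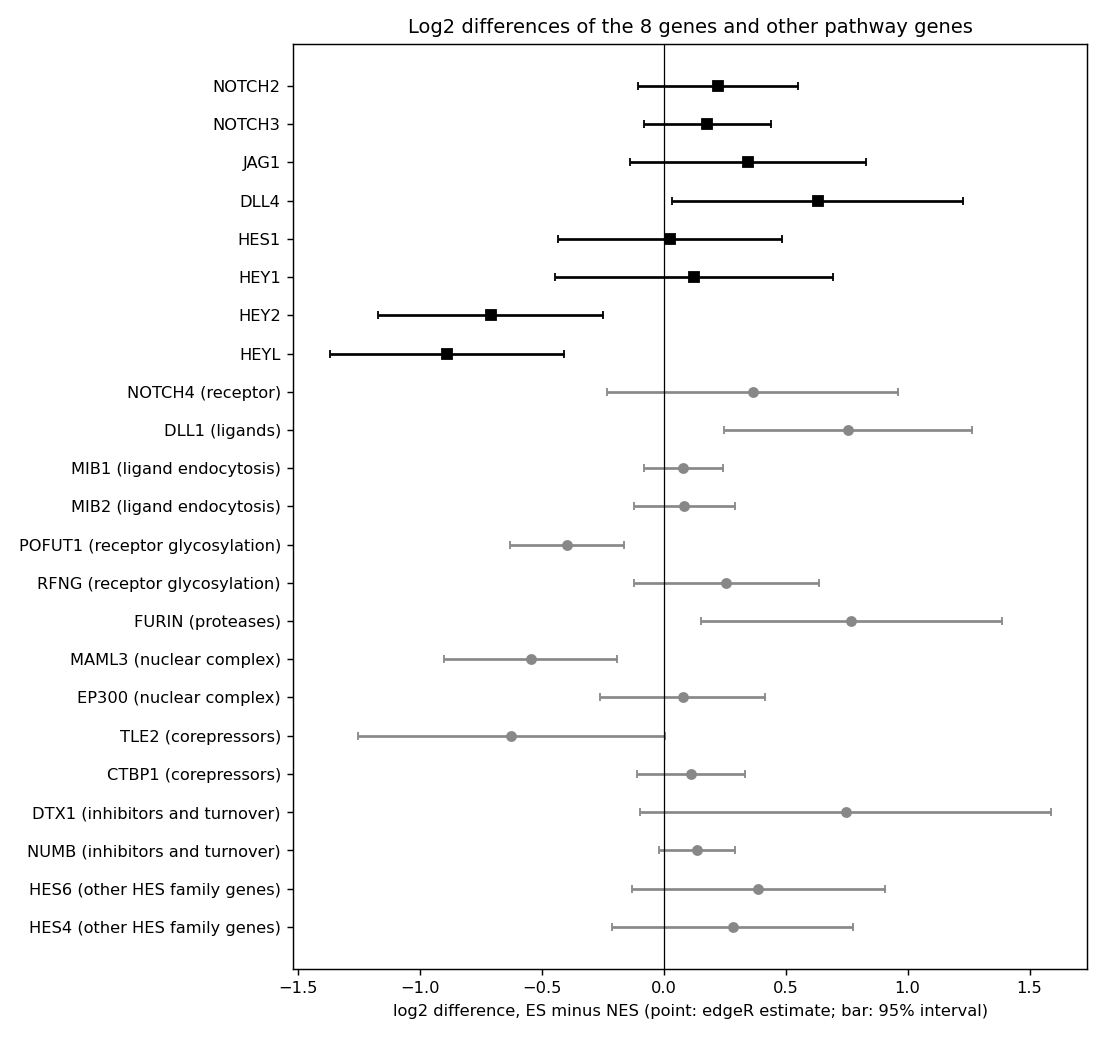
Log2 difference (ES minus NES) with its 95% interval from edgeR for the 8 genes (black squares) and for other pathway genes named by rule (grey circles). HEYL, HEY2, POFUT1 and MAML3 have intervals below 0. DLL4, DLL1 and FURIN have intervals above 0.

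The genes whose log2 CPM was most like that of each target or ligand over the 12 libraries were also read out, from 8800 named genes with a mean of at least 1 FPKM, by Pearson's r. As the best of many, these r describe these libraries only, and points share group and library. HEYL was most like SNRPA, a protein of the U1 spliceosome particle (r = 0.949), RMI2, a part of the BLM helicase complex (0.942), and TONSL, a replication fork repair protein (0.942). HEY2 was most like FAM120C (0.941), B4GAT1, a glucuronyltransferase (0.932), and KIF14, a mitotic kinesin (0.925). The log2 differences of these genes were -0.39 for SNRPA, -1.42 for RMI2, -0.92 for TONSL, -0.32 for FAM120C, -0.56 for B4GAT1 and -1.41 for KIF14.

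DLL4 was most like GLDN (r = 0.958), EPSTI1 (0.935) and ENPP2, the enzyme autotaxin (0.909). For JAG1 the nearest were FAM160A2 (0.948), the chemokine receptor ACKR3 (0.943) and ROBO4, an endothelial receptor (0.920). The nearest to NOTCH3 were the vasodilator peptide gene ADM (0.886), ART4 (0.871) and EDNRA, the endothelin receptor of smooth muscle (0.860). NOTCH2 was most like the kinase NEK7 (0.911), TMEM123 (0.904) and CRBN, a ubiquitin ligase substrate receptor (0.896). HES1 was nearest to MICAL2 (0.919), PRR5 (0.890) and G3BP2 (0.866), and HEY1 to ATP8B1 (0.888), the endothelial gene THSD1 (0.884) and NOTCH4 (0.869). With any 1 library left out, the lowest r among all of these was 0.758, for NOTCH2 and CRBN.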

How the data were processed

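The authors deposited a table of 29150 loci on the pig build Sscrofa11.1 that gives each of 12 libraries a raw count column and an FPKM column, per the file headers. The deposited counts are whole numbers, and the deposited FPKM values were normalised by the authors. HISAT2, TopHat, cutadapt and FastQC stand in the submitters' processing notes. The labels' protocols describe Trizol extraction and stranded dUTP libraries. Which program counted the reads, with which annotation and strand setting, is not given in the sources used here. Columns headed Non_ES were matched to the NES titles by their number.

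Group and number came from the titles. The 20421 loci whose FPKM averaged 0.5 or more were tested with edgeR 4.0.16 (quasi-likelihood, TMM factors, no covariate) in R 4.3.3, with Benjamini-Hochberg adjustment over all of them and a threshold of 0.05. Intervals are at 95%, the SE is the log2 difference divided by the square root of F, and CPM uses the same factors and the totals over the tested loci. Each library is a separate gilt. Alternatives used DESeq2 1.42.0, limma 3.58.1 on log2(FPKM + 0.5), other scalings and minimums, the number as a block, and left-out libraries. The fits were tested on simulated data with known changes.

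The members, gene lists and the library pair ES3 and ES6 were chosen with earlier results of these data known. Other pathway genes were named where called, or as the 2 of each role with the smallest p, and 1 gene so named is not reported here. Likeness is Pearson's r of log2(CPM + 0.5), the 3 highest per gene. Gene sequences were not used here.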

Additional observations from a re-analysis of the deposited data

How the results depend on the processing

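The count of called loci was the least stable value. It was 193 with edgeR (31 higher and 162 lower in ES), 1065 with DESeq2 (465 higher and 600 lower), 337, 334 and 319 with limma at pseudocounts of 0.5, 0.1 and 1, 364 with edgeR on library totals only (37 higher and 327 lower), 28 without a filter and 1 without ES3 and ES6 together. With 1 library left out it ranged from 0 to 415: 0 without NES1, NES3, NES4, NES5, ES2, ES4 or ES6, 1 without NES2, 68 without ES5, 85 without ES3, 278 without ES1 and 415 without NES6. In those 12 fits 2629 to 3811 loci had an unadjusted p under 0.05. The cause was not tested.

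Of the Notch genes 0 were called with edgeR, 2 with DESeq2 (HEY2 and HEYL), and 1 (HEYL) in each limma fit and on library totals only. With 1 library left out the number ranged from 0 to 1, the 1 being HEYL without ES1. A replicate block (the title number as a factor) left 0 called loci and 0 called Notch genes in edgeR, while 2708 loci and 3 Notch genes had an unadjusted p under 0.05. No label ties the numbers to litters, and same-numbered libraries deviated together (r over 0.1) in 2 of 6 pairs, with 2 of 6 ES libraries closest to their own number. Since edgeR without the block also called 0 Notch genes, there was no call for the block to remove.

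The median log2 difference of all tested loci, 0.043 with edgeR and TMM factors, itself moved between fits. It was -0.051, -0.066 and -0.041 in limma at pseudocounts of 0.5, 0.1 and 1, and -0.031 on library totals. HES1 turned to -0.079, -0.11 and -0.058 in limma at pseudocounts of 0.5, 0.1 and 1, to -0.047 on library totals, to -0.022 with the replicate block and to -0.21 without ES3 and ES6. With 1 library left out HES1 ranged from -0.14 to 0.15, HEY1 from -0.010 to 0.26 and EP300 from -0.032 to 0.14. MIB1 turned to -0.0097, -0.010 and -0.0092, MIB2 to -0.012, -0.012 and -0.011 and EP300 to -0.023, -0.027 and -0.019 in limma at the same pseudocounts. EP300 was -0.031 without ES3 and ES6 and -0.024 at its locus of highest FPKM. NOTCH2 (log2 0.094 to 0.29), NOTCH3 (0.083 to 0.28), JAG1 (0.14 to 0.47), DLL4 (0.34 to 0.77), HEY2 (-0.82 to -0.59) and HEYL (-1.13 to -0.72) kept their direction in 22 of 22 fits. HEY1 has the fewest reads (91 to 213 per library), and with 6 libraries per group the widest member interval was that of DLL4 (0.035 to 1.23).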
